A study of Mus musculus with 6 samples.

Results

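ASMM10UP probes are a numbered family of 923 detection probes on a mouse long noncoding RNA array, and they were read here in liver RNA from before birth and from adulthood. The members were found as every probe that is not a control and whose name starts with ASMM10UP. They are 923 of 60930 such probes, are numbered from 1 to 923 without a gap, and occupy 1 spot each. The files do not pair them with genes, so each member is named by its probe name and nothing is said of its transcript. Most other probes on the array, 58141, are named ASMM10P, and these serve as the comparison family.

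All 6 samples were C57BL/6 mouse liver total RNA bought from a supplier, with no treatment and no genetic change given. The prenatal group held 3 arrays at embryonic day 18, which the description gives as E18.5, and the tissue field calls it embryo. The adult group held 3 arrays at 2 months. The series says that the RNA came from 3 different animals, and each array was labelled with a single dye.

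Long noncoding RNAs are transcripts with little or no coding capacity. Some act on the genes beside them, others hold protein complexes together, and many are restricted to particular tissues or stages. The liver before birth houses blood formation, and its hepatocytes are still maturing. The adult liver has lost most blood formation and carries the metabolic programme of mature hepatocytes. RNA of the whole organ reflects every cell type in it, so fewer cells of a type and less RNA per cell cannot be told apart in any value below.

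Only 2 of 30 marker genes of liver cell types had a probe that could be named. The erythroid list had 1 of 7 genes with a named probe, Tfrc, the transferrin receptor. Its log2 signal was 8.23, 8.21 and 7.97 before birth and 4.75, 4.51 and 4.28 in the adult. The immune list had 1 of 4 genes, B2m, which encodes beta-2 microglobulin of the antigen-presenting complex, at 6.48, 6.78 and 7.13 before birth and 9.42, 9.79 and 9.44 in the adult. The Tfrc probe was thus lower and the B2m probe higher in the adult, with no overlap of ages. With 1 gene read, neither list shows the amount of a cell type. The part of changing cell types in the members' differences was not tested. No hepatocyte marker had a named probe (0 of 6), so the tissue label could not be checked against its own defining genes.

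Brightness differed between the arrays. The raw 75th percentile of the signal ran from 69.4 on adult replicate 2 to 151.9 on prenatal replicate 2, and all levels here are log2 signals minus that percentile of the same array. A level of 0 is thus the 75th percentile, and a difference of 1 is 2-fold. A probe counted as detected where the scanner software flagged its spot as well above background. Prenatal replicate 1 and adult replicate 3 carried the same scan time in their files, and the other 4 arrays shared another. Prenatal replicate 1 stood apart from its group, with 12.5% of all tested probes over 4-fold from the mean of the other prenatal arrays, against 0.464% to 2.66% for each of the other arrays in its own group. Values without it are given below for the counts, for the brightness classes and for named members whose difference it moved most. With 3 arrays an age, their number limits the precision.

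Detection came first, since it is a readout of its own. Fewer ASMM10UP than ASMM10P probes were detected, on every array and at both ages. The number of detected members was 226, 309 and 243 before birth and 215, 186 and 231 in the adult, or 259.3 ± 43.8 (SD, n = 3) and 210.7 ± 22.8 (SD, n = 3). The groups overlapped, because prenatal replicate 1 with 226 lay below adult replicate 3 with 231. As a share of 923, detection was 24.5%, 33.5% and 26.3% before birth and 23.3%, 20.2% and 25% in the adult. For ASMM10P the shares were 49.1%, 62.1% and 52.6% before birth and 51.6%, 46.2% and 52.1% in the adult. Both families peaked on prenatal replicate 2, the brightest array.

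**Figure D1:**
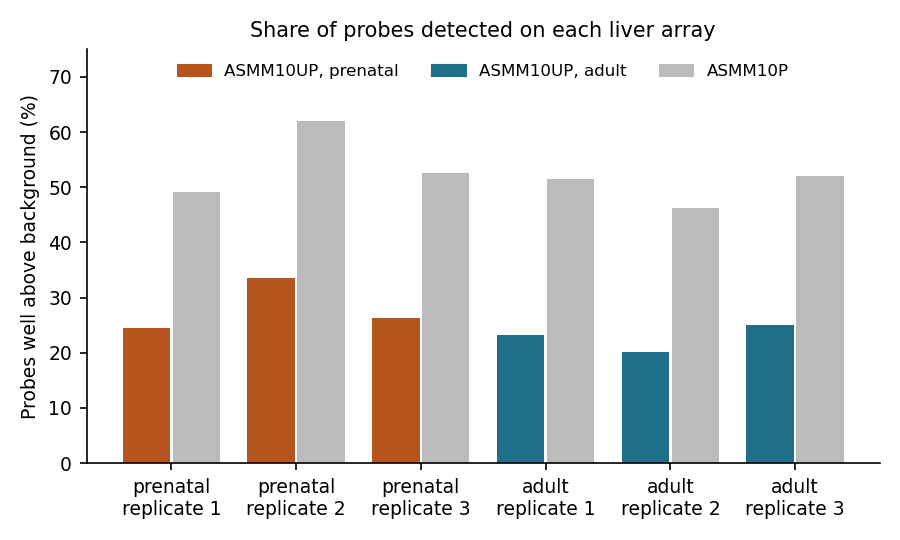
Share of probes flagged well above background on each array (percent of the family), for the 923 ASMM10UP probes (coloured by age) and the 58141 ASMM10P probes (grey). Each bar is 1 array. The ASMM10UP bars lie between 20.2% and 33.5%, below the grey bar of 46.2% to 62.1% on every array.

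Of the 923 members, 557 were detected on no array, 88 on a single array and 150 on all 6. The share detected on no array was 60.3%, against 32.1% of ASMM10P probes, and the share detected on all 6 was 16.3%, against 38.6%. Of the 88 members seen on a single array, 41 were seen on prenatal replicate 2, and 5 to 13 on each of the others. Prenatal replicate 2 was also the brightest array; the part of brightness in this count was not tested. The scan software wrote the same lowest signal for many members: 400 to 549 of 923 sat at this floor on an array. Such values carry no order among themselves.

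Members detected at a single age were more often prenatal. Every prenatal but no adult array detected 19 members, which is 2.06% of the family. The share over all probes was 2.19%, so it lay near the background. Every adult but no prenatal array detected 3 members, or 0.325%, against 0.827% over all probes. Among tested probes, defined below, these are 7.92% and 1.25% of members, against 4.13% and 1.56% of all probes. Only 26.0% of members were tested, against 53.1% of all probes. The tested shares thus rest on unlike denominators and are not read as a prenatal excess of the family. Without prenatal replicate 1, 33 members were detected on both other prenatal arrays and on none from the adult. The adult count was 5 without adult replicate 1 and 6 without adult replicate 2. Leaving out an array loosens the rule, so these counts could only stay or rise. No share over all probes is set beside them, so they are not read as a result about the members.

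For these probes the level in the dim group is only a bound. They reached the test only through the age at which they were bright, and their limma p-values use dim signals not well above background. These p-values are given as values of the fit and add no support beyond the bound. The fold below sets the mean of the bright group against, on each dim array, the higher of the probe's own signal and the lowest signal flagged above background there. ASMM10UP120 was the extreme member in adult liver. Its log2 signal was -2.53, -3.70 and -3.06 before birth and 5.82, 5.98 and 7.04 in the adult, at least 583-fold higher (limma adjusted p = 4.97e-05). The groups lay far apart, and all 3 prenatal spots were not well above background. ASMM10UP265 had -4.18, -4.58 and -5.02 before birth and -0.42, -0.59 and -0.43 in the adult, at least 5.39-fold higher (limma adjusted p = 0.00020). ASMM10UP100, the last of the 3, had adult values of -1.64, -1.77 and -1.60 and was at least 2.36-fold higher there (limma adjusted p = 0.012).

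ASMM10UP165 was the extreme member before birth. Its log2 signal was 5.47, 4.70 and 3.58 before birth and -3.58, -4.49 and -3.71 in the adult, at least 136-fold higher before birth (limma adjusted p = 0.000122). Even its lowest prenatal value lay far above the adult ones, none of which was well above background. ASMM10UP342 had 2.51, 0.75 and 0.92 before birth and was at least 14.9-fold higher (limma adjusted p = 0.000925). ASMM10UP381 had 0.26, 0.55 and 0.13 before birth and was at least 7.03-fold higher (limma adjusted p = 0.000461). ASMM10UP173 and ASMM10UP060 followed, at least 3.93-fold and 3.72-fold higher before birth, with prenatal SDs of 1.36 and 1.41 around means of -0.53 and -0.61. Both were called, which adds no support beyond the bound. Prenatal replicate 1 was the low array for the former (-2.09) and the high array for the latter (1.01). Without it the fitted differences, which use the dim adult signals, were -4.95 and -3.38, and both were still called. With the normexp background correction neither was called (limma adjusted p = 0.054 and 0.122). The median bound over all 19 was 2.17-fold. It was at least 2-fold for 11 of them and under 1, so that no fold can be given, for 2.

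The comparison of levels asked which members differ between prenatal and adult liver. Probes detected on 3 or more arrays were tested with limma, and the p-values were adjusted over all 32336 tested probes of the array by the Benjamini-Hochberg method. A probe is called here at an adjusted p under 0.05. Of the 923 members, 240 were tested and 56 were called, or 23.3%, against 27.8% of all tested probes. Of the 56, 39 were higher before birth and 17 in the adult, which is 16.3% and 7.08% of tested members. Over all tested probes these shares were 12.0% and 15.8%. At least 2-fold change was seen for 50 called members, 20.8%, against 26.0% of all tested probes. Higher before birth was thus the majority direction among called members, 69.6% of calls, and the minority direction over all probes, 43.0% of calls.

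The number of calls moved with single arrays, for members and background alike. Leaving out adult replicate 1, 2 or 3 lowered the 56 calls to 34, 30 and 30, against 17.6%, 16.4% and 16.7% of all probes. Leaving out prenatal replicate 1 raised them to 81, of which 59 were higher before birth, against 35.8% of all probes. Without prenatal replicate 2 or 3 there were 48 and 39 calls (24.1% and 19% of all probes), and without the latter 25 were higher before birth. The share of called members that were higher before birth was 64.1% to 72.8% with any array left out, against 41.5% to 46.0% over all probes.

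The model mattered as well. Weighting the arrays by their fit gave 113 called members, or 47.1%, against 47.5% of all probes. The normexp background correction gave 33, or 13.8%, against 20.7% of all probes. Prenatal calls were 69.9% and 60.6% of these, against 46.3% and 41.1% of the calls over all probes. According to the series text the RNA came from different animals, and the p-values measure the spread between these samples.

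A member detected at a single age was tested only through its signal at that age, so the 150 members detected on all 6 arrays are the plainer set. Of these, 33 were called, 22.0% against 24.6% of all probes detected on 6 arrays, with 22 higher before birth and 11 in the adult. The log2 difference, adult minus prenatal, was below 0 for 95 of the 150, or 63.3%, against 46.4% of all such probes. Its median was -0.22, against 0.08. Over all 240 tested members 62.5% lay below 0 with a median of -0.27, against 47.4% and 0.07 over all tested probes. Of the remaining 90 tested members 25.6% were called, 73.9% of these higher before birth, against 35.6% and 49.6% for ASMM10P probes detected on as many arrays. Of the 23 called members among these 90, 14 were detected on every prenatal and no adult array, and 3 the other way round. Such members passed the filter only through the age at which they were high. The prenatal share of these calls thus mostly restates detection at a single age.

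**Figure D2:**
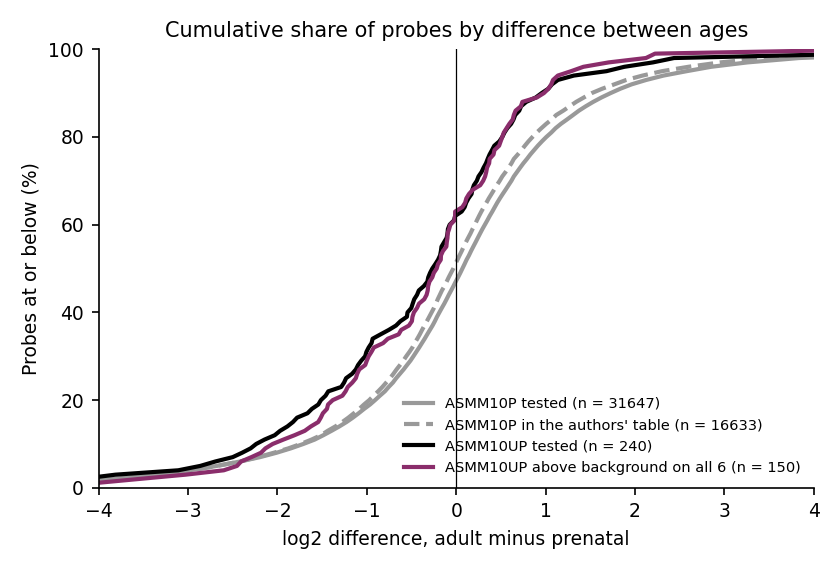
Cumulative share of probes (percent, vertical axis) at or below each log2 difference, adult minus prenatal (horizontal axis, shown from -4 to 4), for tested ASMM10UP probes, those detected on all 6 arrays, tested ASMM10P probes and the ASMM10P probes in the authors' deposited table. At a difference of 0 the ASMM10UP curves stand at 62.5% and 63.3%, and the ASMM10P curves at 47.2% and 51.4%.

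The lean toward prenatal liver was not seen on every array. The median log2 signal of the 150 members was 0.43, 0.04 and 0.50 before birth and 0.00, 0.18 and 0.19 in the adult. Prenatal replicate 2 lay below 2 of the 3 adult arrays, so these medians overlapped between ages. The share of tested members below 0 was 61.7% without prenatal replicate 1 and 55.8% without adult replicate 1, the lowest of the 6. Among all 923 members without a filter, 59 were called (against 13% of all probes), the median difference was 0.41, and 33.3% lay below 0. Most of those members sit at the floor, which after scaling was at -4.78, -5.89 and -5.02 before birth and -5.0, -4.49 and -4.99 in the adult. That median reads the scaled floor rather than measured levels.

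Groups of values that did not overlap between ages were also counted. This held for 91 of 240 tested members, 37.9%, against 47.6% of all tested probes. In 58 of the 91 the prenatal values were the higher ones, against 6634 of 15393 over all tested probes.

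ASMM10UP787 rose most among the members detected on all 6 arrays. Its log2 signal was -0.86, -1.31 and -0.27 before birth and 3.81, 4.24 and 4.06 in the adult, 28.8-fold higher (difference 4.85, SE 0.33, limma adjusted p = 0.000179). No prenatal value came near an adult one. ASMM10UP844 went from -1.47, -1.89 and -1.83 to 0.75, 0.34 and 0.37, a 4.65-fold rise (limma adjusted p = 0.00143). ASMM10UP663 went from 0.02, -0.19 and -0.42 to 1.60, 1.98 and 2.19, a 4.35-fold rise (limma adjusted p = 0.00211). In both, the arrays of each age lay close together, and the ages did not overlap.

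ASMM10UP567 had a rise of similar size with a wider spread. Its values were 1.79, 0.79 and 1.92 before birth and 2.83, 4.48 and 3.88 in the adult (4.70-fold, limma adjusted p = 0.0197). ASMM10UP786 was 3.20-fold and ASMM10UP333 3.32-fold higher in the adult. ASMM10UP089 and ASMM10UP589 were 2.66-fold and 2.65-fold higher. The smallest of the 10 largest rises were ASMM10UP837, from 3.68 ± 0.06 to 4.75 ± 0.23 (SD, n = 3), and ASMM10UP395, from -0.40 ± 0.09 to 0.55 ± 0.08 (SD, n = 3). Their replicates lay so close together that changes of 2.09-fold and 1.94-fold passed the test. The adjusted p of these 6 ran from 0.00365 for ASMM10UP786 to 0.0269 for ASMM10UP333 in limma. ASMM10UP395 was not called with any 1 adult array or prenatal replicate 3 left out (limma adjusted p = 0.066 to 0.087). It stayed called without prenatal replicate 1 or 2. ASMM10UP755, detected on 1 prenatal array and all adult arrays, rose from -4.45, -4.22 and -2.54 to 1.18, 1.48 and 1.21 (limma adjusted p = 0.000879).

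ASMM10UP599 fell most from prenatal to adult liver among members detected on all 6 arrays. Its log2 signal was 5.77, 5.71 and 6.19 before birth and 0.41, 1.33 and 1.52 in the adult, 28.0-fold higher before birth (difference -4.81, SE 0.36, limma adjusted p = 0.000259). Prenatal replicate 1 lay with the other prenatal arrays for this probe. ASMM10UP602 had 2.17, 3.34 and 3.82 before birth and -0.45, -0.91 and -0.92 in the adult, a 14.6-fold difference (limma adjusted p = 0.00144). ASMM10UP484 had 2.70, 3.32 and 3.19 before birth and 0.66, 0.41 and 0.35 in the adult, a 6.05-fold difference (limma adjusted p = 0.000908). ASMM10UP574 and ASMM10UP034 had tight groups as well, with differences of 4.5-fold and 4.52-fold and limma adjusted p-values of 0.00269 and 0.00149.

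Other large prenatal differences leaned on wide groups. ASMM10UP703 had 8.23, 5.07 and 5.16 before birth and 0.94, 1.64 and 3.02 in the adult (19.6-fold, limma adjusted p = 0.0179). ASMM10UP674 had 5.79, 3.38 and 3.35 before birth and -0.42, 0.66 and 1.61 in the adult (11.7-fold, limma adjusted p = 0.0188). In both, prenatal replicate 1 was the highest array by a wide margin, and without it the differences were -3.25 and -2.74, still called. ASMM10UP897 was 6.27-fold, ASMM10UP382 5.30-fold and ASMM10UP695 4.84-fold higher before birth (limma adjusted p = 0.0143, 0.0364 and 0.0293). For ASMM10UP382 prenatal replicate 1, at 2.75, again stood above the others at 0.58 and 0.30, and without it the difference was -1.63 (limma adjusted p = 0.00703). Of the members not detected on any adult array, ASMM10UP186 and ASMM10UP820 had small adjusted p-values in limma, 0.00217 and 0.00134, with lower bounds of 3.38-fold and 1.02-fold.

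**Figure D3:**
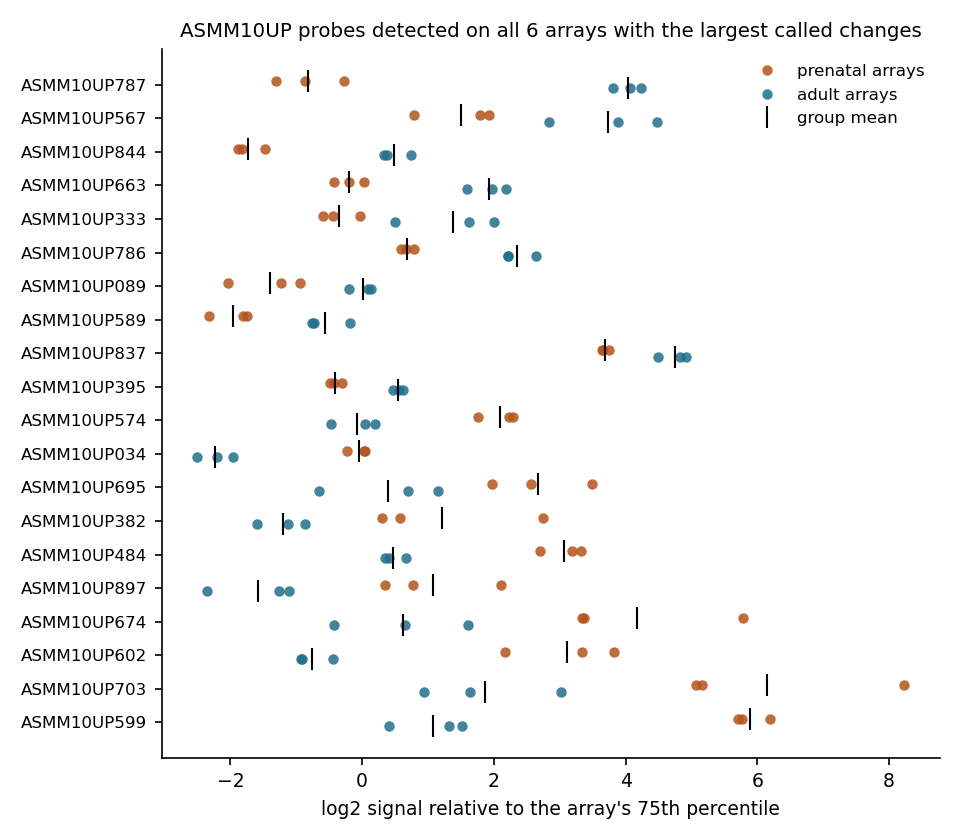
Log2 signal relative to the array's 75th percentile (horizontal axis) of the 20 ASMM10UP probes with the largest called change in either direction among those detected on all 6 arrays with groups that do not overlap. Each point is 1 array, coloured by age, and bars mark group means. ASMM10UP787 at the top has adult values of 3.81 to 4.24 and prenatal values below 0, and ASMM10UP599 at the bottom has prenatal values of 5.71 to 6.19.

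Near the threshold, ASMM10UP886 and ASMM10UP412 were called at limma adjusted p-values of 0.0451 and 0.0492 with differences of -0.79 and -0.95. ASMM10UP539 and ASMM10UP758 were not called at limma adjusted p-values of 0.0522 and 0.0534, although their differences of -3.37 and -1.92 were larger. Without prenatal replicate 1 both were called, at -2.24 and -1.30 (limma adjusted p = 0.0341 and 0.0412). Both were also called within the 4 arrays that shared a scan time (limma adjusted p = 0.00742 and 0.0288) and with the scan group as a block (0.00239 and 0.0077). The spreads of members near the threshold differed: the prenatal SD was 1.95 for ASMM10UP539 and 0.12 for ASMM10UP886.

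None of the 5 members with the highest mean signal passed the test, although 5 of the 24 brightest tested members were called. Signals of different probes do not rank their transcripts. ASMM10UP152 had 9.78, 7.22 and 7.95 before birth and 6.15, 7.51 and 7.81 in the adult, so the groups overlapped (limma adjusted p = 0.286). ASMM10UP423 had 9.22, 6.71 and 6.93 before birth and 4.63, 5.97 and 6.12 in the adult, without overlap (limma adjusted p = 0.0884). ASMM10UP432 had 8.68, 5.65 and 6.01 before birth and 3.52, 4.26 and 5.24 in the adult (limma adjusted p = 0.0789). Without prenatal replicate 1 the differences of these 3 were -0.43, -1.25 and -1.49, none of them called. ASMM10UP687 was at 6.02 ± 0.15 before birth and 6.00 ± 0.22 in the adult (SD, n = 3), and ASMM10UP054 at 5.84 ± 0.56 and 5.44 ± 0.22 (SD, n = 3). The limma adjusted p-values of this pair were 0.973 and 0.427. Without prenatal replicate 1 the difference of ASMM10UP054 was -0.73 (limma adjusted p = 0.0579), and with array weights this member was called.

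Of the 5 brightest, 3 (ASMM10UP152, ASMM10UP423 and ASMM10UP432) shared an array pattern, with prenatal replicate 1 highest and adult replicate 1 lowest. It was found after the values were seen and is given as a description. Of 240 tested members, 27 were over 4-fold higher on prenatal replicate 1 than the mean of the other prenatal arrays, or 11.3%, against 6.45% of tested ASMM10P probes. A further 12 were over 4-fold lower there, 5.0% against 5.97%. On the adult arrays, which did not enter that choice, adult replicate 1 was the lowest for 26 of the 27, against 102 of the other 213 tested members. Among ASMM10P probes chosen the same way it was the lowest for 73.8%, and for 34.4% of the others. The median of adult replicate 3 minus the mean of the other adult arrays was 0.82 over the 27. This shift was above 0 for 24 of them, and for 119 of the 201 members within 4-fold. The subtracted mean includes adult replicate 1, so a low value there raises the shift by itself. The shift is therefore not a trait separate from the count of adult replicate 1 as the lowest array. For ASMM10P probes chosen the same way the median shift was 0.61, and 76.7% lay above 0.

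Prenatal replicate 1 and adult replicate 3 are the pair scanned together, and the part of the scan in this pattern was not tested. The 27 included 5 called members, namely ASMM10UP060, ASMM10UP288, ASMM10UP382, ASMM10UP674 and ASMM10UP703. Without prenatal replicate 1 the difference was below 0 for 22 of the 27 and 9 were called. Of the 2042 such ASMM10P probes, 490 were called over all arrays and 930 without prenatal replicate 1, when 70.5% lay below 0. Among the 4 arrays that shared a scan time, the difference of ASMM10UP703 was -3.83 (limma adjusted p = 0.00326), and between the pair it was -5.22. For ASMM10UP432 these values were -1.94 (limma adjusted p = 0.0196) and -3.44. It was called within the 4 arrays and with the scan group as a block (limma adjusted p = 0.00677), and not called over all arrays without the block.

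Of the members detected on all 6 arrays, the most changed in each direction differed between ages in both scan groups. For ASMM10UP599 the difference was -5.08 within the 4 arrays (limma adjusted p = 0.00298) and -4.25 between the pair, and for ASMM10UP787 it was 4.81 (limma adjusted p = 0.00373) and 4.92. In all, the 4 arrays alone gave 60 called members, of which 49 were among the 56, and 28.3% of all probes were called there. With the scan group as a block 68 members were called, including all 56, against 35.9% of all probes.

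**Figure D4:**
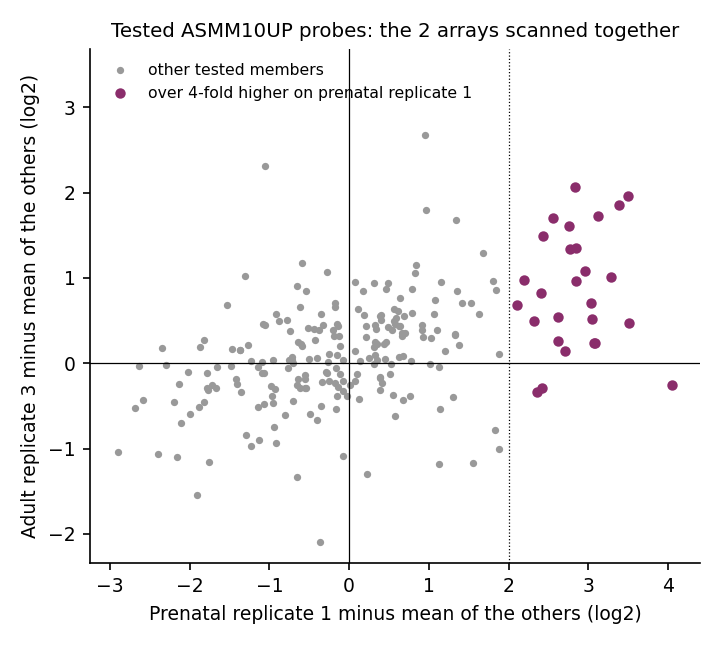
Each point is a tested ASMM10UP probe. The horizontal axis is its log2 signal on prenatal replicate 1 minus the mean of the other prenatal arrays, and the vertical axis is the same for adult replicate 3 against the other adult arrays. Of the 27 coloured members to the right of the dotted line at 2, 24 lie above 0 on the vertical axis. The subtracted adult mean includes adult replicate 1, the lowest adult array for 26 of the 27.

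Tested members were dimmer than tested ASMM10P probes, with a median mean signal of -0.91 against -0.28, so the families were also compared at like brightness. The 240 members were cut into 10 classes of 24 by their mean log2 signal over all 6 arrays, and the 30892 tested ASMM10P probes in that range were cut at the same limits. With classes weighted alike, 27.9% of ASMM10P probes were called, against 23.3% of members. Calls higher in the adult made up 15.6% of ASMM10P probes and 7.08% of members, and the share of members was the lower one in all 10 classes. Calls higher before birth made up 12.4% of ASMM10P probes and 16.3% of members, with members higher in 8 of 10 classes. With 24 members a class, some gaps were narrow. In the fifth class calls higher in the adult were 12.5% of members and 12.9% of ASMM10P probes. In the sixth class calls higher before birth were 12.5% and 11.8%. No test was made of these differences between families.

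The median difference of members was below 0 in 9 of the 10 classes, and that of ASMM10P probes in none (0 of 10). The ninth class, with signals of 1.29 to 2.83, had the largest share of called members, 10 of 24, against 30.7% of ASMM10P probes there. Among the dimmest members, 6 of 24 were called, against 40.9% of ASMM10P probes of that brightness. The spread between arrays of a group was wider for members in 8 of 10 classes: the median within-group SD was 0.58 over tested members and 0.45 over tested ASMM10P probes.

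The lean was also looked at against other choices of ASMM10P probes. The deposited table of values holds all 240 tested members and no other member, but only 16633 of the 31647 tested ASMM10P probes. Against those tabled ASMM10P probes alone, calls higher before birth were 16.3% of members and 13% of ASMM10P probes, and calls higher in the adult 7.08% and 14.0%. The median difference of these tabled ASMM10P probes was itself below 0 in 6 of the 10 classes. Among probes detected on all 6 arrays the shares were 14.7% and 9.27% before birth, and 7.33% and 14.4% in the adult. With brightness taken from the adult arrays alone, the prenatal shares were 16.3% and 14.8%. Without prenatal replicate 1, 33.8% of members and 35.2% of ASMM10P probes were called, 24.6% and 17.1% higher before birth and 9.17% and 18.1% higher in the adult. The median difference of members was then below 0 in 8 of 10 classes and that of ASMM10P probes in 1.

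**Figure D5:**
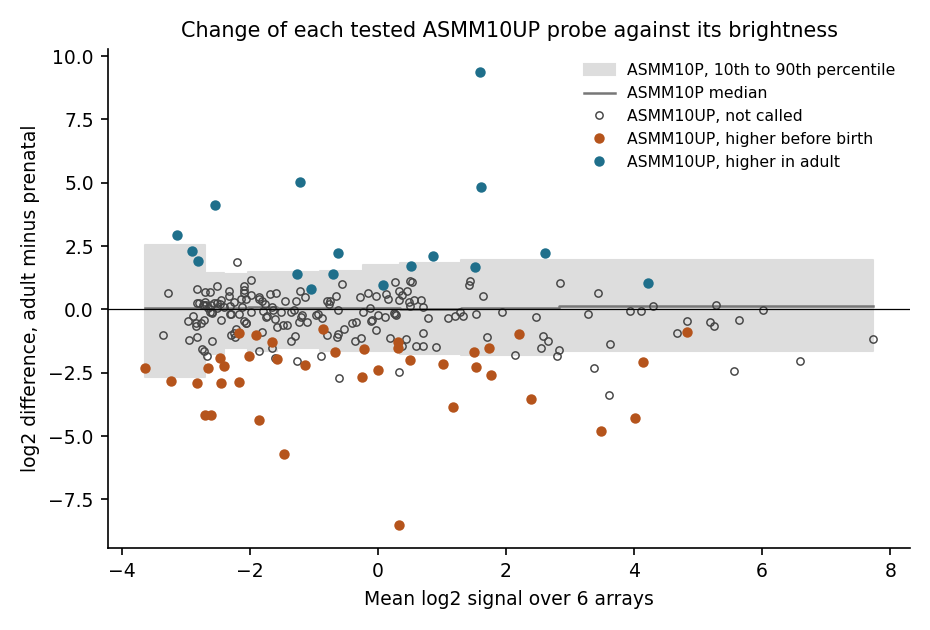
Log2 difference, adult minus prenatal (vertical axis), against mean log2 signal over 6 arrays (horizontal axis) for the 240 tested ASMM10UP probes, with called probes filled in the colour of the age at which they were higher. The grey band and line give the 10th to 90th percentile and the median of ASMM10P probes in each of 10 brightness classes. Called members lie on both sides of 0, 39 below and 17 above.

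Probe numbers were the last feature that members share. Of 79 pairs of tested members with consecutive numbers, both were called in 7, or 8.86%, against 9.17% of such ASMM10P pairs. In 5 of the 7 both changed in the same direction, against 65.6% of the ASMM10P pairs with both called. ASMM10UP786 (0.59, 0.67 and 0.78 before birth; 2.21, 2.22 and 2.65 in the adult) and ASMM10UP787 were both higher in the adult. Higher before birth were ASMM10UP381 with ASMM10UP382, ASMM10UP334 with ASMM10UP335, ASMM10UP694 with ASMM10UP695, and ASMM10UP449 with ASMM10UP450. Sizes within a pair could differ: ASMM10UP449 fell by 0.91 and ASMM10UP450 by 2.08 on the log2 scale.

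The other pairs ran in opposite directions. ASMM10UP342 was at least 14.9-fold higher before birth, whereas ASMM10UP343 was 1.77-fold higher in the adult (-1.25, -1.48 and -1.65 before birth; -0.68, -0.67 and -0.58 in the adult; limma adjusted p = 0.0432). ASMM10UP333 was higher in the adult, and ASMM10UP334 and ASMM10UP335 were 2.44-fold and 2.41-fold higher before birth. Whether consecutive numbers mark neighbouring or shared transcripts is not given in the sources used here. In blocks of 100 consecutive numbers, 18 to 33 members were tested and 4 to 10 called, and the last block, 901 to 923, had 11 tested and 2 called. From 701 to 800, 5 of 7 calls were higher in the adult. In each of the other blocks, at least as many calls were higher before birth as in the adult.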

How the data were processed

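Each of the 6 samples, grouped by its title, was read on an array of its own in a single colour. The authors deposited spot intensity values on a linear scale, background-subtracted, per the file headers, by the scan software Feature Extraction 11.0.1.1. Its flags for detection are other values of the deposited files. The authors also deposited a table of log2 values, with a normalisation not named in the sources used here.

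From each log2 processed signal the array's 75th percentile, taken without control spots, was subtracted; outlier spots were left out, which removed no value of a tested member. Probes detected on at least 3 arrays were fitted with limma 3.58.1 in R 4.3.3 (lmFit, eBayes, two-sided, threshold 0.05), and the fit was tested on simulated data. Tfrc and B2m took their names from RefSeq genes of GRCm38.p6. Alternatives changed the background correction, scaling, filter, variance model, array weights, scan and replicate blocks, source of values, flags and arrays used.

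Named members follow a rule: among called members detected on all 6 arrays without overlap, the 10 largest in each direction; up to 5 by bound per single-age class; the 5 brightest; the 3 smallest p of the rest; called consecutive pairs; and 4 nearest the threshold. ASMM10UP288 was named after its values were seen. Members, lists and rules were chosen with earlier results of these data known.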

Additional observations from a re-analysis of the deposited data

How the results depend on the processing

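The directions of shared calls held: every call made under both the main and another setting had the same direction, in each of the 21 other settings. Of 951 refits of the 46 named members, 816 kept their side of the threshold, 110 lost their call and 21 gained one, and 4 turned: ASMM10UP687, with a difference of -0.01, ran from -0.14 to 0.058 with an array left out. Called in all 20 settings that test every member were 16 of the 56. No share over all probes is set beside this count, so it is not read as a result about the members. The 16 include ASMM10UP120, ASMM10UP165, ASMM10UP265, ASMM10UP342 and ASMM10UP381, which were tested only through the age at which they were bright. The causes of the moves below were not tested, apart from the smaller number of members at hand under the stricter filter.

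Array weights gave 113 called members (79 higher before birth, 34 in the adult, 84 at least 2-fold). The normexp correction with an offset of 50 gave 33 (20 higher before birth, 23 at least 2-fold) with a median difference of -0.10. Only probes detected on all 6 arrays gave 33 (22 and 11; 28 at least 2-fold). With no filter the median was 0.41. The replicate block gave 27 (18 and 9; 27 at least 2-fold), against 13.9% of all probes. Arrays of 1 number deviated from their group means in opposite ways (correlations of -0.53, -0.35 and -0.31). With 3 arrays an age these correlations cannot settle whether the numbers pair the samples. Nothing in the labels says that they do. Leaving out each array gave 30 to 81 calls (21 to 59 before birth, 9 to 22 in the adult, 30 to 70 at least 2-fold), and 19 to 33 and 3 to 6 members detected only before birth or only in the adult. The share called, members minus ASMM10P probes of like brightness, was -4.61 percentage points and -4.23 to -1.46 under the other cuts; those by tabled probes, by detection on all arrays and without prenatal replicate 1 were added after the data were seen. Dim signal is a limit too: 557 of 923 members were detected on no array.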
